A study of Mus musculus with 28 samples.

Results

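The genes described here encode the mitochondrial respiratory chain and ATP synthase of mouse regulatory T cells (Tregs), those carried on nuclear chromosomes and those carried on mitochondrial DNA. They were chosen by symbol alone: nuclear genes whose names begin with Ndufa, Ndufb, Ndufc, Ndufs, Ndufv, Uqcr, Cox4 to Cox8 or Atp5, the genes Sdha to Sdhd, and the protein-coding genes of the mitochondrial genome. Of 13103 genes in the table, 80 qualified, 67 nuclear and 13 mitochondrially encoded. The nuclear genes were 28 subunits of complex I, 6 assembly factors of complex I (Ndufaf genes), 4 subunits of complex II, 8 of complex III, 8 of complex IV and 13 of complex V. Some subunit genes, such as Ndufs3, Ndufs8, Cox5b, Cox6b1 and Atp5g2, were not among the 13103 genes. Cyc1, the cytochrome subunit of complex III, lies outside the symbol rule and is read from a list below. Counts for complexes I, III, IV and V are therefore not those of whole complexes. The mitochondrial genes were 7 of complex I, 1 of complex III, 3 of complex IV and 2 of complex V. All but 1 passed the filter on low values. The exception, Ndufa4l2, stood at 1.57 and 1.55 CPM (counts divided by library size and put on one scale) in 2 tumor OX40minus samples and at 0 to 0.179 CPM in the other samples.

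All groups came from Foxp3-GFP mice, in which green fluorescent protein (GFP) marks cells that express Foxp3, the transcription factor of Tregs. Every mouse had received B16 melanoma cells in the skin, and tumor and spleen were taken 7 to 10 days later, so that the spleens are those of tumor-bearing mice. GFP-positive cells were sorted by high or low surface OX40, a TNF receptor family member that costimulates T cells, which gave 4 groups: spleen OX40minus (n = 3 mice), spleen OX40plus (n = 3), tumor OX40minus (n = 4) and tumor OX40plus (n = 4). Total RNA of the sorted cells was sequenced in 2 libraries per mouse and gate. The sources used here give no age, sex or strain of the mice, nor whether mice of the same number in tumor and spleen were the same animal.

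The respiratory chain passes electrons from NADH (complex I) and succinate (complex II) through ubiquinone, complex III and cytochrome c to oxygen at complex IV, and the proton gradient this builds drives ATP synthesis by complex V. Complexes I, III, IV and V are built from subunits of both genomes, whereas complex II is entirely nuclear encoded. Mitochondrial messages are cut from long transcripts that span the mitochondrial genome, are made by their own RNA polymerase and then decay at their own rates, so their levels are set by other machinery than those of the nuclear genes. Tregs are known for relying on oxidative phosphorylation more than conventional effector T cells do, and loss of complex III in mouse Tregs is known to impair their suppressive function.

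Estimated counts were 22.4 M to 29.6 M per sample, so that 3 counts corresponded to 0.104 to 0.13 CPM. The 2 libraries of a mouse and gate differed by about the sampling noise (median chi-square per gene 0.496 to 0.573, where sampling alone gives 0.455) and were averaged into 1 sample. Mouse 4 stood apart in the tumor OX40plus group, where it was the highest of the 4 mice for 56 of the 67 nuclear and all 13 mitochondrial genes, so the class counts and medians of the contrasts that hold it are given with and without it. Foxp3 was present in every group, at 58.5 ± 3.99, 41.9 ± 6.6, 64.5 ± 56.4 and 32.5 ± 8.86 CPM (SD) in the OX40plus and OX40minus gates of tumors and then of spleens. RNA of other cells was also present and moved with the groups. Macrophage genes (10 tested) summed to 56.2 to 66.3 CPM in tumor OX40plus, 233 to 343 in tumor OX40minus, 82.4 to 195 in spleen OX40plus and 757 to 961 in spleen OX40minus. B cell genes summed to 0 to 1.35 CPM in tumors and 264 to 391 in spleens, and melanoma genes to 69.3 to 184 CPM in tumors and 12.6 to 22.4 in spleens. Dendritic cell genes summed to 37.9 to 67.3 CPM in tumor OX40plus, 134 to 193 in tumor OX40minus and 14.6 to 49.1 in spleens, and erythroid genes to 34.9 to 166 CPM in tumors and 4.47 to 15.98 in spleens. The part of these cells in the results below was not tested.

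Nuclear respiratory genes were most abundant in tumor OX40plus Tregs and least abundant in the spleen. The sum of the mitochondrially encoded genes had the opposite order between tissues. The 67 nuclear genes summed to 13126, 13433, 14671 and 16980 CPM in tumor OX40plus mice 1 to 4 and to 10381, 10741, 10662 and 9943 CPM in tumor OX40minus mice 1 to 4. In spleens they summed to 6325, 5978 and 7659 CPM in OX40plus mice 1 to 3 and to 7399, 6213 and 5568 CPM in OX40minus mice 1 to 3. The tumor gates did not overlap each other or the spleen, whereas the spleen gates overlapped. As a share of the library this was 1.28% to 1.64% in tumor OX40plus, 1.00% to 1.06% in tumor OX40minus, 0.634% to 0.780% in spleen OX40plus and 0.582% to 0.722% in spleen OX40minus.

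The 13 mitochondrial genes summed to 5911, 6172, 6571 and 9377 CPM in tumor OX40plus mice 1 to 4 and to 5452, 5606, 6059 and 6440 CPM in tumor OX40minus mice 1 to 4. The spleen sums were 10804, 11712 and 11703 CPM in OX40plus and 15618, 13330 and 12852 CPM in OX40minus. The tumor gates overlapped, and every spleen sample lay above every tumor sample. COX1, a complex IV gene, made up much of this gap. Its spleen means were 5260 and 6743.5 CPM in OX40plus and OX40minus, of mean sums of 11406 and 13933. In tumors its means were 1310 and 1264 CPM, of mean sums of 7008 and 5889. The 2 genes of complex V together went the other way, at 999 to 1938 CPM in tumors and 512 to 750 CPM in spleens. The ratio of the mitochondrial to the nuclear sum was 0.448 to 0.552 in tumor OX40plus, 0.522 to 0.648 in tumor OX40minus, 1.53 to 1.96 in spleen OX40plus and 2.11 to 2.31 in spleen OX40minus. Spleen thus had 3.63-fold and 3.87-fold the tumor ratio in OX40plus and OX40minus Tregs, with no overlap. In bulk samples such as these, fewer cells of a type and less RNA per cell cannot be told apart.

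**Figure D1:**
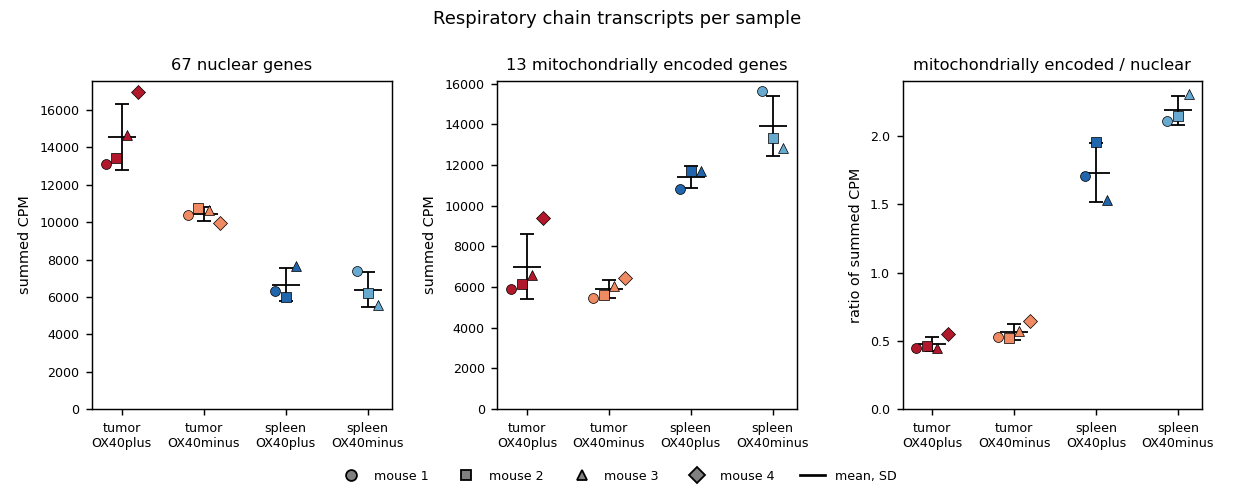
Summed level in CPM of the nuclear and the mitochondrially encoded respiratory genes in each of the 14 samples, and the ratio of the sums, by group; points are mice and bars are the group mean with its SD. The nuclear sums of the tumor OX40plus mice (13126 to 16980) lie above all others, and the mitochondrial sums of the spleen mice (10804 to 15618) lie above all tumor mice.

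Within tumors, OX40plus Tregs had more RNA of nuclear respiratory genes than OX40minus Tregs, in every complex, by a summed level 1.40-fold as high (1.19-fold for the mitochondrial genes). In limma's fit on log2 CPM (adjusted p under 0.05, Benjamini-Hochberg over all 12509 genes tested), 46 of 66 nuclear genes rose and 0 fell, with a median log2 fold change of 0.46. Over all genes tested, 38.5% were called, 18.6% higher and 20% lower, and the median was -0.07. All 13 tested subunits of complex V rose (median 0.54), as did 7 of 8 of complex III (0.55), 5 of 8 of complex IV (0.53), 16 of 27 of complex I (0.38), 3 of 6 complex I assembly factors (0.70) and 2 of 4 of complex II (0.33). Without mouse 4 of tumor OX40plus, 38 nuclear genes were called (median 0.35), among them 10 of complex V, 7 of complex III, 3 of complex IV and 13 of complex I. With the mouse as a block, 40 were called; Ndufa3 (adjusted p = 0.0884), Ndufs5 (0.0506), Cox6b2 (0.0549), Atp5d (0.0792), Atp5h (0.0983) and Atp5l (0.0724) were lost.

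Among complex I genes the log2 fold changes differed in size. Ndufs1 (GRCm38, chromosome 1, 63143596 to 63176833) encodes the large iron-sulfur subunit that takes part in electron transfer from NADH. It stood at 161, 181, 158 and 173 CPM in the 4 tumor OX40plus mice and at 135, 128, 137 and 122 CPM in the 4 tumor OX40minus mice. The groups did not overlap, and the log2 fold change was 0.36 ± 0.07 (SE; limma adjusted p = 0.000958). Ndufa12 encodes an accessory subunit. It stood at 102, 98.4, 119 and 150.5 CPM in tumor OX40plus mice against 61.6, 59.9, 67.7 and 61.8 CPM in tumor OX40minus mice, also without overlap (0.88 ± 0.16, adjusted p = 0.000333).

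The assembly factors help to put complex I together and are not part of the finished enzyme. Ndufaf4 (chromosome 4, 24898083 to 24905001) stood at 30.1, 24.6, 33.5 and 41.8 CPM in tumor OX40plus and at 17.2, 14.2, 15.2 and 16.4 CPM in tumor OX40minus, and Ndufaf6 at 8.98, 10.5, 15.1 and 11.7 against 5.42, 5.81, 5.21 and 4.59 CPM. Neither overlapped between the gates, with log2 fold changes of 1.02 ± 0.16 (adjusted p = 9.3e-05) and 1.12 ± 0.21 (adjusted p = 0.000707). Ndufaf2, which in human cells acts on a late assembly intermediate and is related to Ndufa12, rose by 0.90 ± 0.25 (adjusted p = 0.00946). Ndufaf1, Ndufaf3 and Ndufaf5 did not pass the test (log2 fold changes 0.24, 0.22 and 0.49). Of the complex I subunits that did not pass, the accessory gene Ndufa6 (-0.13, adjusted p = 0.551) and Ndufv3 (-0.50, adjusted p = 0.347) had negative fold changes.

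Complex II, succinate dehydrogenase, also serves the citric acid cycle. Its catalytic flavoprotein gene Sdha stood at 351, 399, 390 and 341 CPM in tumor OX40plus and 332, 353, 378 and 354 CPM in tumor OX40minus, which overlapped (0.06, adjusted p = 0.547). Its partner Sdhb (chromosome 4, 140961203 to 140979193), the iron-sulfur subunit, stood at 401, 385, 399 and 538 CPM against 313, 327, 319 and 285 CPM, without overlap (0.46 ± 0.12, adjusted p = 0.00572). The membrane anchor genes Sdhc and Sdhd had log2 fold changes of 0.25 (adjusted p = 0.0741) and 0.40 (adjusted p = 0.0154).

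Complex III genes rose except Uqcrh, the hinge subunit (0.35, adjusted p = 0.0944). Uqcr10, a small subunit, had the largest log2 fold change of this complex. Its level was 177, 179, 190.5 and 265 CPM in tumor OX40plus and 118, 124, 108 and 98.8 CPM in tumor OX40minus, without overlap (0.84 ± 0.16, adjusted p = 0.000606). Uqcrfs1, which carries the Rieske iron-sulfur cluster, rose from 149 ± 11 to 215 ± 27.4 CPM (0.52, adjusted p = 0.00145), and the core subunit gene Uqcrc2 from 161 ± 9.17 to 205 ± 14.7 CPM (0.34, adjusted p = 0.00464).

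Of the complex IV genes, Cox5a (chromosome 9, 57521274 to 57532426) had the largest difference among those above 3 CPM. It stood at 227, 230, 282 and 329 CPM in tumor OX40plus and at 147, 162, 153 and 152 CPM in tumor OX40minus, without overlap (0.78 ± 0.14, adjusted p = 0.000292). Cox4i1, another nuclear subunit of this complex, had 426 ± 52.8 against 352 ± 11 CPM and did not pass (0.27, adjusted p = 0.127). Several complex IV subunits are encoded by alternative genes. For Cox6a and Cox7a the widely expressed form stood well above the tissue-restricted form, while of the Cox6b forms only the testis form Cox6b2 was among the genes measured. Cox6a1 was at 361 ± 59.5 and 268 ± 16.6 CPM in tumor OX40plus and OX40minus, while the heart and muscle form Cox6a2 was at 0.19 ± 0.222 and 0.706 ± 0.98 CPM. Likewise Cox7a2 was at 214 ± 48.3 and 141 ± 9.19 CPM and the heart and muscle form Cox7a1 at 1.2 ± 0.429 and 0.65 ± 0.362 CPM. The testis form Cox6b2 was called at 2.5 ± 0.819 against 1.03 ± 0.223 CPM (1.23 ± 0.46, adjusted p = 0.043), a call lost under 11 of 21 alternative settings.

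Complex V makes ATP. Atp5b (chromosome 10, 128083273 to 128090391) encodes its catalytic beta subunit and stood at 1648, 1819, 1910.3 and 1861 CPM in tumor OX40plus and at 1212, 1298, 1311 and 1207 CPM in tumor OX40minus, without overlap (0.52 ± 0.08, adjusted p = 0.000125). Atp5g1 and Atp5g3 encode the same mature c subunit, the protein of the rotating ring. Atp5g1 stood at 192, 213, 240.3 and 295 CPM against 114, 124, 117 and 105 CPM (1.01 ± 0.14, adjusted p = 3.45e-05), and Atp5g3 rose from 275 ± 17.3 to 458 ± 69 CPM (0.73, adjusted p = 0.000154). The Atp5g1 values did not overlap between the gates. Atp5mpl, which encodes a small proteolipid of the membrane part, stood at 132, 133, 158 and 201 CPM against 78.7, 84.9, 79.9 and 84.8 CPM (0.90 ± 0.16, adjusted p = 0.000342).

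Between the tumor gates 3 of the 13 mitochondrially encoded genes were called higher, ND1, ND2 and ND3, all of complex I. Over all genes tested 18.6% were called higher and 20% lower. All 13 mitochondrial log2 fold changes were positive (median 0.25), against an all-gene median of -0.07. ND1 stood at 492, 495, 564 and 797 CPM in tumor OX40plus and at 379, 375, 434 and 433 CPM in tumor OX40minus, without overlap (0.51 ± 0.13, adjusted p = 0.00593), and was called under all 21 alternatives. ND2 (0.31, adjusted p = 0.0462) lost its call under 16 of them, and ND3 (0.55, adjusted p = 0.0178) under 2, without tumor OX40plus mouse 4 (0.0572) and without tumor OX40minus mouse 1 (0.0605). COX1, the catalytic subunit of complex IV, had overlapping values of 1310 ± 212 and 1264 ± 128 CPM (0.04, adjusted p = 0.797). Without tumor OX40plus mouse 4 the median over the mitochondrial genes was 0.11 and 1 was called.

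In spleens no single nuclear gene passed the test between the gates. In limma's fit 0 of the 66 were called (3 had an unadjusted p under 0.05, and 0 were called with voom weights), with a median log2 fold change of 0.07, against 7.99% of all genes called (4.39% higher, 3.6% lower) and an all-gene median of 0.01. Uqcr10 had the smallest p among the nuclear genes and stood at 48.8, 48.6 and 68.6 CPM in spleen OX40plus and 49.9, 40.7 and 32.1 CPM in spleen OX40minus, which overlapped (0.44, adjusted p = 0.2). Of the mitochondrial genes 0 of 13 were called (4 had an unadjusted p under 0.05, and 0 were called with voom weights), and 11 had a negative log2 fold change (median -0.25). COX1 stood at 5315, 5344 and 5121 CPM in spleen OX40plus and at 7488, 6478 and 6265 CPM in spleen OX40minus. The values did not overlap, but the difference did not pass the test (-0.35, adjusted p = 0.132). ND2 was called when only the spleen samples were fitted (adjusted p = 0.0468), and COX1 without tumor OX40plus mouse 4 (adjusted p = 0.0329).

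**Figure D2:**
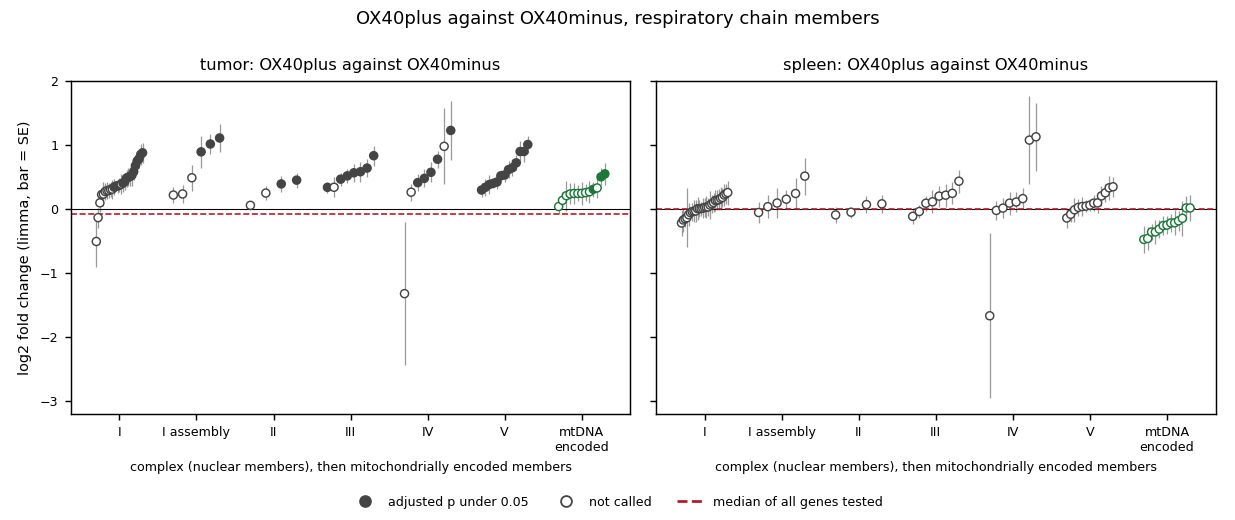
Log2 fold change of OX40plus over OX40minus for each tested respiratory gene, by complex, in tumors and in spleens; filled points passed an adjusted p of 0.05 in limma's fit, bars are SE, and the dashed line is the median of all genes tested. In tumors the called genes are all above 0, and in spleens none is called.

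Whether the OX40 difference itself differed between tumor and spleen was tested in the same fit. It was positive and called for 6 of 66 nuclear genes (26 at an unadjusted p under 0.05, median 0.38) and for 2 of 13 mitochondrial genes (9 unadjusted, median 0.46), and no gene was called in the negative direction. Over all genes 10.9% were called, 4.53% positive and 6.38% negative, with a median of -0.06. The nuclear genes were Ndufs1 (0.42 ± 0.11, adjusted p = 0.025), Ndufaf4 (0.98 ± 0.24, adjusted p = 0.0154), Uqcrfs1 (0.63 ± 0.17, adjusted p = 0.0247), Cox5a (0.67 ± 0.21, adjusted p = 0.0498), Atp5b (0.47 ± 0.13, adjusted p = 0.0244) and Atp5mpl (0.91 ± 0.24, adjusted p = 0.0249). The mitochondrial genes were ND1 (0.76 ± 0.20, adjusted p = 0.0229) and ND2 (0.62 ± 0.18, adjusted p = 0.0366). Ndufaf4 shows the pattern most plainly. Its tumor OX40plus mice stood at 24.6 CPM or above, while its other 10 samples lay between 14.2 and 17.6 CPM.

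Of these 8 genes, Ndufaf4 passed the test under all 20 alternative settings and leave-one-out fits. With the mouse as a block the call was lost for Ndufs1 (adjusted p = 0.0881), Cox5a (0.0987), Atp5b (0.0775) and Atp5mpl (0.0541), which left 2 nuclear genes. The count of nuclear genes was 1 without spleen OX40plus mouse 1 or 2 or without spleen OX40minus mouse 1 or 2, and 3 without tumor OX40plus mouse 3 or tumor OX40minus mouse 4. Without tumor OX40plus mouse 4, 5 nuclear genes (median 0.27) and 2 mitochondrial genes (median 0.32) were called, and Cox5a was lost (adjusted p = 0.072). The nuclear count was 12 without tumor OX40plus mouse 1, 17 without spleen OX40plus mouse 3 and 16 without spleen OX40minus mouse 3. The mitochondrial count was 0 without mouse 1 of either spleen gate, 5 without spleen OX40plus mouse 2, and 1 without tumor OX40minus mouse 1, 2 or 4 or spleen OX40minus mouse 2 or 3.

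**Figure D3:**
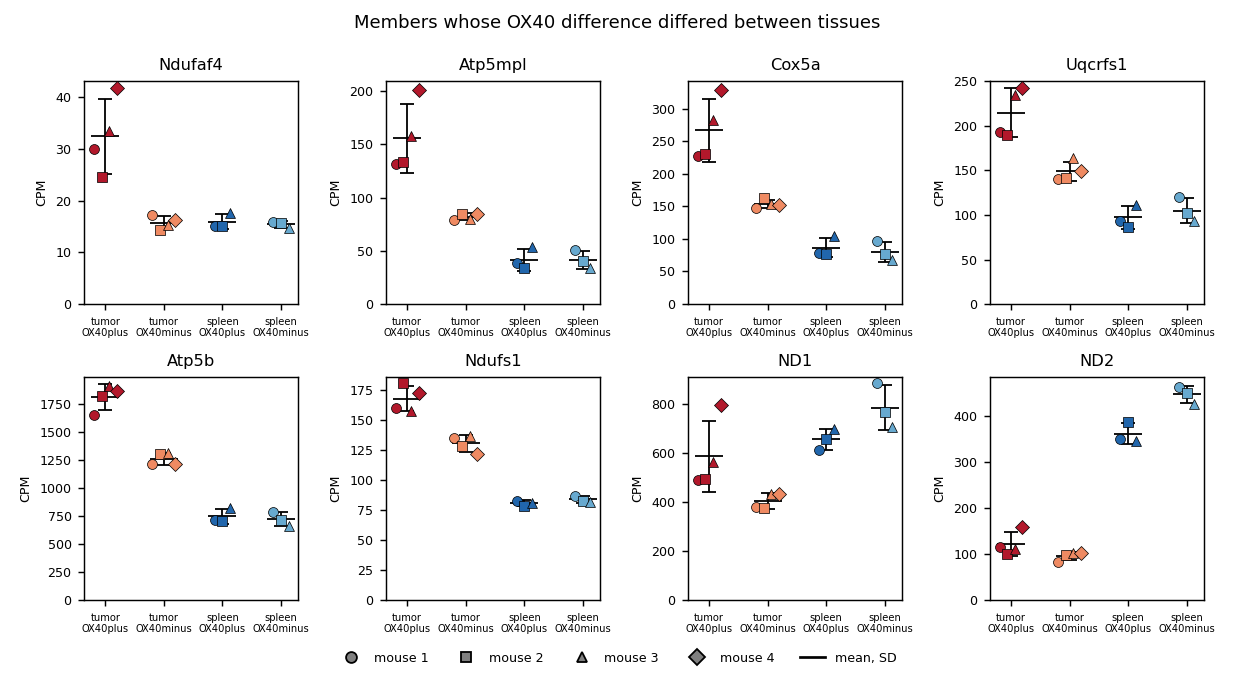
Level in CPM of the 8 genes whose OX40 difference in tumors was called as unlike that in spleens; points are mice, by group, and bars are the mean with its SD. Ndufaf4 in tumor OX40plus mice (24.6 to 41.8 CPM) lies above all other samples, and ND2 is higher in every spleen mouse than in every tumor mouse.

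Between tissues nearly all nuclear genes were higher in tumor Tregs. The 2 tissue contrasts and the 2 gate contrasts share samples, so their values are given side by side without a measure of likeness. In OX40plus Tregs, 60 of 66 nuclear genes were higher in the tumor and 1 was lower, with a median log2 fold change of 1.13, against 64.5% of all genes called (30.3% higher, 34.2% lower) and an all-gene median of -0.13. In OX40minus Tregs, 51 were higher and 1 was lower, with a median of 0.80, against 59.1% of all genes called (29.7% higher, 29.3% lower) and an all-gene median of -0.03. By complex, the numbers called higher in OX40plus Tregs were 24 of 27 for complex I (median 1.15), 5 of 6 for its assembly factors (1.00), 4 of 4 for complex II (1.05), 8 of 8 for complex III (1.29), 6 of 8 for complex IV (1.34) and 13 of 13 for complex V (1.1). In OX40minus Tregs they were 21 (0.88), 3 (0.32), 3 (0.84), 6 (0.89), 6 (0.93) and 12 (0.60). Without tumor OX40plus mouse 4, 57 nuclear genes were higher and 1 lower in OX40plus (median 1.05).

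The 250 bases upstream of the start sites were examined for 4 nuclear genes that show the range of these differences, from GRCm38.p6 as given by RefSeq. Capitals mark matches to the motif of NRF1 (GCGCA, any base, then GCGC), a transcription factor known for binding promoters of respiratory genes, or to that of ETS factors (CCGGAAG), the family that includes GABP, on either strand. Uqcr11 had the largest tissue difference of the nuclear genes, Ndufaf4 the plainest difference between the tissues' gate contrasts, and Sdhd both motifs. Ndufa6 was the complex I gene called lower in tumors and had no match to either motif. Lack of a motif was not particular to it. Of 42 nuclear genes without the NRF1 motif, 37 were called higher and 1 lower in OX40plus tumor Tregs, beside 30.3% and 34.2% of all genes. The same counts held for the 42 without the ETS motif. A link between motif and direction was not tested.
Uqcr11, chr10:80406822-80407071 (- strand): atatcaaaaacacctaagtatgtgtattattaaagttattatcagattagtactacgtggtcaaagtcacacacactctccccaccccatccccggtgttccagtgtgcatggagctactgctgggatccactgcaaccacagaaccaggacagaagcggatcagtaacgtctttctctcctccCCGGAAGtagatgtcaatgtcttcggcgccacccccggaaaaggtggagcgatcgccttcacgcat
Ndufaf4, chr4:24897833-24898082 (+ strand): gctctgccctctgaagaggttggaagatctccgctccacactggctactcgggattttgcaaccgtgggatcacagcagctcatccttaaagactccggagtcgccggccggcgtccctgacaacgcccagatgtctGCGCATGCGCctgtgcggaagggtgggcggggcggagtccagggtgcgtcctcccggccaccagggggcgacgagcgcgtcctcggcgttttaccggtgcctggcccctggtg
Sdhd, chr9:50603850-50604099 (- strand): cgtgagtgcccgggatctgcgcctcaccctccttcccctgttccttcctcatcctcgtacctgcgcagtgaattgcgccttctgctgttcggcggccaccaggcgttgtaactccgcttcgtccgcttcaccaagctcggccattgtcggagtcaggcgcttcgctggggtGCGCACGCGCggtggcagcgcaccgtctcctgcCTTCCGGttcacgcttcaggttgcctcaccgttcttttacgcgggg
Ndufa6, chr15:82354292-82354541 (- strand): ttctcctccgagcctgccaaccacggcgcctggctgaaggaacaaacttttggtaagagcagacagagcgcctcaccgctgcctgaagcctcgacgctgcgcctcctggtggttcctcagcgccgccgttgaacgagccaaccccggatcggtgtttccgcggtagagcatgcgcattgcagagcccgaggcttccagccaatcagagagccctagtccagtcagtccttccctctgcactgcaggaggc

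Uqcr11 (chromosome 10, 80402997 to 80406830), a small subunit of complex III, stood at 151, 158, 176 and 216 CPM in tumor OX40plus and at 29.8, 29.5 and 40.1 CPM in spleen OX40plus, and the log2 fold change of tumor over spleen was 2.40 ± 0.16 (adjusted p = 1.59e-09). In OX40minus it stood at 115, 132, 111 and 109 CPM in tumors and 35.6, 26.9 and 23.9 CPM in spleens (2.04 ± 0.16, adjusted p = 1.5e-08). No spleen sample reached the level of any tumor sample. Uqcrb, which encodes another small subunit of complex III, had a similar difference in OX40plus (216 ± 55.7 against 40.7 ± 7.39 CPM, 2.39 ± 0.17, adjusted p = 3.82e-09). Ndufb4, an accessory subunit of complex I, rose from 8.76 ± 0.438 CPM in spleen to 36.3 ± 6.38 CPM in tumor OX40plus Tregs (2.04 ± 0.18, adjusted p = 7.55e-08).

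Within complex II the tissue differences were unequal in size. Sdhb stood at 128, 121 and 149 CPM in spleen OX40plus mice, against 385 to 538 CPM in tumor OX40plus mice, a log2 fold change of 1.69 ± 0.13 (adjusted p = 8.27e-09), and the OX40minus value was 1.31. Sdha stood at 225, 226 and 242 CPM in spleen OX40plus, below the tumor OX40plus range of 341 to 399 CPM, with log2 fold changes of 0.68 (adjusted p = 1.86e-06) in OX40plus and 0.57 in OX40minus. The anchor gene Sdhd was nearer to Sdhb (1.42 and 1.11), and Sdhc nearer to Sdha (0.61, and 0.26 with adjusted p = 0.0621 in OX40minus).

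Some nuclear genes had a tissue difference in OX40plus Tregs and none that passed the test in OX40minus Tregs. Ndufaf4 had 1.01 in OX40plus against 0.03 (adjusted p = 0.908) in OX40minus, and this difference between the gates is the value tested above. Uqcrc2 had 0.32 (adjusted p = 0.0058) against -0.05, and Atp5e, the epsilon subunit of complex V, 0.82 (adjusted p = 0.000692) against 0.25 (adjusted p = 0.238). The difference between the gates was not called for Uqcrc2 (adjusted p = 0.0758) or Atp5e (adjusted p = 0.163). Atp5b was higher in tumors in both gates, by 1.28 and 0.81, and so was Cox5a, by 1.62 and 0.95.

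Ndufa6 (chromosome 15, 82350140 to 82354322), an accessory subunit of complex I, was the 1 nuclear gene called lower in tumors, in both gates. It stood at 55.9, 52.5, 59.3 and 88.5 CPM in tumor OX40plus against 84.2, 75.4 and 104.8 CPM in spleen OX40plus, where mouse 4 of the tumor overlapped the spleen (-0.48 ± 0.17, adjusted p = 0.021). In OX40minus it stood at 62.9, 70.8, 73.4 and 67.6 CPM in tumors against 118, 96.6 and 82.2 CPM in spleens, without overlap (-0.51 ± 0.17, adjusted p = 0.0156). The OX40plus call was lost without tumor OX40plus mouse 1 or 2 or spleen OX40plus mouse 3 (adjusted p = 0.0525 to 0.116), and the OX40minus call without spleen OX40minus mouse 1 (adjusted p = 0.0957). The muscle form Cox7a1 was called higher in tumors (1.61, adjusted p = 0.0379, and 1.71, adjusted p = 0.0314) at levels of 0.198 to 1.2 CPM in all 4 groups. Those calls were lost under 5 and 8 of 21 alternatives.

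**Figure D4:**
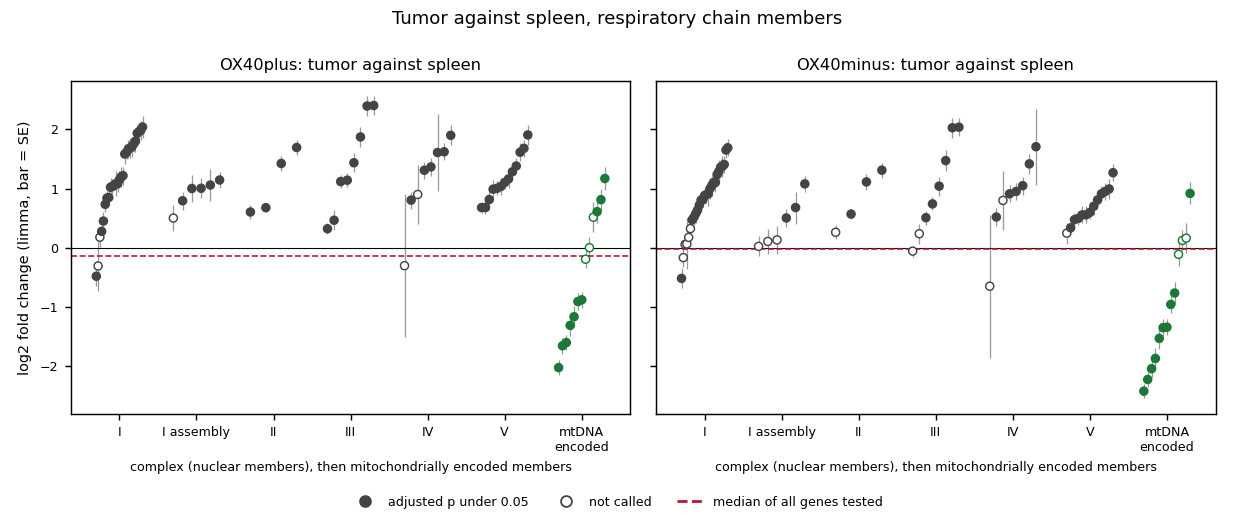
Log2 fold change of tumor over spleen for each tested respiratory gene, by complex, in OX40plus and OX40minus Tregs; filled points passed an adjusted p of 0.05 in limma's fit, bars are SE, and the dashed line is the median of all genes tested. Nuclear genes lie mostly above 0, while most mitochondrially encoded genes lie below 0 and COX1 is the lowest.

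Most mitochondrially encoded genes went the other way. In OX40plus Tregs 7 of 13 were lower and 3 higher in tumors (median -0.88), and in OX40minus Tregs 9 were lower and 1 higher (median -1.34). Over all genes tested, 34.2% were lower and 30.3% higher in OX40plus (median -0.13). In OX40minus 29.3% were lower and 29.7% higher (median -0.03). Without tumor OX40plus mouse 4, 8 were lower and 3 higher in OX40plus (median -1.02). COX1 stood at 1161, 1212, 1243 and 1624 CPM in tumor OX40plus and, as given above, at 5121 to 5344 CPM in spleen OX40plus, a log2 fold change of -2.02 ± 0.12 (adjusted p = 7.67e-10). In OX40minus it stood at 1179, 1132, 1380 and 1367 CPM in tumors against 6265 to 7488 CPM in spleens (-2.42 ± 0.12, adjusted p = 1.33e-10). Every tumor sample lay below every spleen sample. ND2 stood at 99.1 to 158 CPM in tumor OX40plus and 346 to 387 CPM in spleen OX40plus (-1.60, adjusted p = 1.79e-08), and its OX40minus value was -2.22. CYTB, the mitochondrially encoded subunit of complex III, stood at 679 to 1048 CPM against 1344 to 1517 CPM (-0.88), and at -1.34 in OX40minus.

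The remaining complex I genes of the mitochondrial genome were also lower in tumors in most cases. The log2 fold changes in OX40plus and OX40minus were -1.65 and -2.04 for ND4, -1.16 and -1.86 for ND4L, -0.90 and -1.35 for ND5, and -1.31 and -1.53 for ND6, the protein-coding gene of the opposite strand. ND1 and ND3 did not pass in OX40plus (-0.19, adjusted p = 0.25, and 0.00, adjusted p = 0.986) but fell in OX40minus by 0.95 (adjusted p = 2.57e-05) and by 0.76. Without tumor OX40plus mouse 4, ND1 was called lower in OX40plus too (-0.35, adjusted p = 0.00627). Both gates of ND1 were given above for tumors, and in spleens it stood at 614, 657 and 699.7 CPM in OX40plus and 885, 766 and 706 CPM in OX40minus.

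Genes for complex V and part of complex IV did not share the fall. ATP6, the proton-channel subunit of complex V, stood at 974, 1026, 1132 and 1738 CPM in tumor OX40plus and at 449, 499 and 670.3 CPM in spleen OX40plus, without overlap (1.17 ± 0.19, adjusted p = 3.93e-05), and rose by 0.92 in OX40minus (adjusted p = 0.000483). ATP8, which overlaps ATP6 on the same transcript, rose in OX40plus (0.81, adjusted p = 0.000736) and did not pass in OX40minus (0.13). COX3 was called in OX40plus (0.61, adjusted p = 0.0128), though its values overlapped, and without spleen OX40plus mouse 1 it was 0.34 (adjusted p = 0.113). COX2 stood at 853 ± 227 in tumor and 614 ± 226 CPM in spleen OX40plus and was not called (0.52, adjusted p = 0.0846). It was called without spleen OX40plus mouse 3 (0.79, adjusted p = 0.0152) and without spleen OX40minus mouse 1, which enters the fit through the shared spread.

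Along the mitochondrial genome these genes lie side by side. On the GRCm38 mitochondrial sequence COX2 lies at 7013 to 7696, ATP8 at 7766 to 7969, ATP6 at 7927 to 8607, COX3 at 8607 to 9390 and ND3 at 9459 to 9806, and these 5 neighbors are the genes that, with ND1, were not called lower in OX40plus tumor Tregs. Without tumor OX40plus mouse 4, ND1 left that group and 8 genes were called lower. ND2 (3914 to 4951) and COX1 (5328 to 6872) lie before them, and ND4L (9877 to 10173), ND4 (10167 to 11544), ND5 (11742 to 13565), ND6 (13552 to 14070, opposite strand) and CYTB (14145 to 15288) after them. Per kilobase of gene, ATP6 had the highest level of the 13 in both tumor gates (1788 and 1441 CPM per kb in OX40plus and OX40minus), and COX1 in both spleen gates (3405 and 4365 CPM per kb). The ratio of ATP6 CPM to COX1 CPM, which does not depend on library scaling, was 0.839 to 1.07 in tumor OX40plus, 0.741 to 0.832 in tumor OX40minus, 0.0844 to 0.131 in spleen OX40plus and 0.0664 to 0.0838 in spleen OX40minus.

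Nuclear copies of mitochondrial DNA limit these levels. In the GENCODE transcripts of GRCm38, 8 of the 13 genes had another transcript with at least 95% identity over at least 50% of their length, namely ND3, ND4, ND4L, ND5, COX1, COX2, COX3 and ATP6. No such copy was in the table. The authors' tool, kallisto, shares reads among transcripts, and how transcripts became genes is not stated in the sources at hand. The levels of these 8 genes are therefore uncertain. Of the neighbors named above, COX2, ATP6, COX3 and ND3 had such copies, as did COX1, ND4L, ND4 and ND5 among the genes called lower in OX40plus tumor Tregs. ATP8, ND1, ND2, ND6 and CYTB had none. The part of such copies in the tissue differences was not tested. Of the 67 nuclear genes, Ndufb11, Uqcrb, Atp5h, Atp5l and Atp5o had copies by the same rule.

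**Figure D5:**
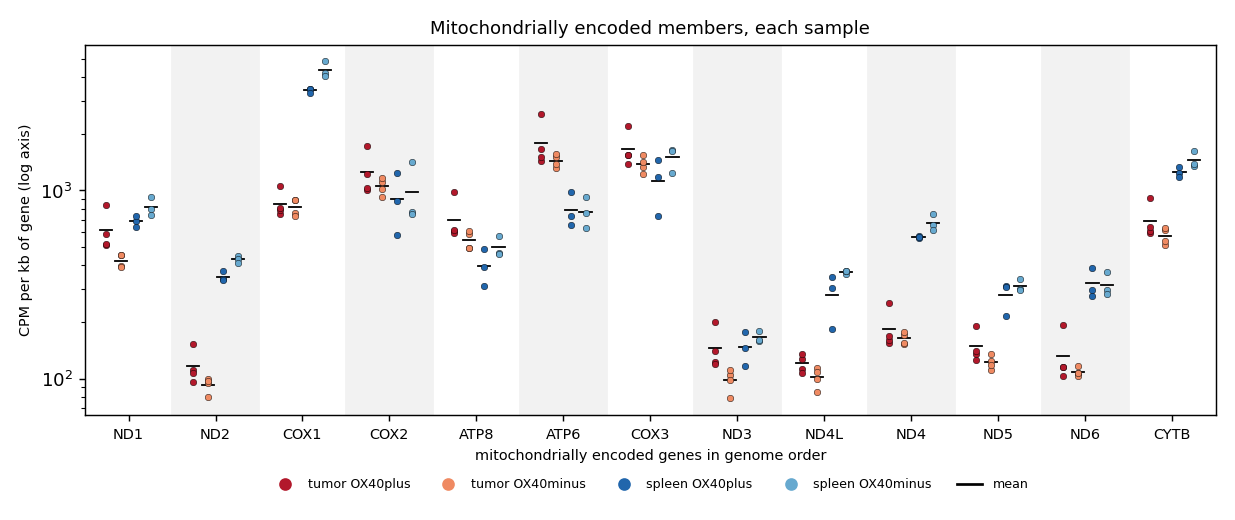
Level in CPM per kb of gene, on a log axis, of the 13 mitochondrially encoded genes in their order along the mitochondrial genome; points are mice, colored by group, with a line at each group mean. At COX1 the spleen means (3405 and 4365 CPM per kb) lie above the tumor means (848 and 818), and at ATP6 the tumor means (1788 and 1441) lie above the spleen means (792 and 770.4).

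Other genes of mitochondrial respiration were read from lists, beside 18.6% of all genes called higher and 20% called lower between the tumor gates. Cytochrome c (Cycs) and Cyc1, the cytochrome subunit of complex III, were higher in tumor OX40plus than in tumor OX40minus Tregs (2 of 2; Cycs 0.80 with 120 ± 27.5 against 67.7 ± 6.16 CPM, Cyc1 0.55 with 303 ± 11.8 against 207 ± 14.1 CPM), and both passed the test of the difference between tissues. Of other complex I subunits and assembly factors 4 of 6 were higher and 1 lower, of complex II and III assembly factors 1 of 6 (Uqcc2, 0.84), of complex IV assembly factors 5 of 16 (median 0.30) and of complex V assembly and inhibitor genes 4 of 5, which include Atp5mpl. Mitochondrial import genes were higher for 13 of 16 (median 0.57), among them the chaperonin genes Hspd1 (1.00) and Hspe1 (1.29) and the pore gene Tomm40 (0.81). In the spleen gates 1 of these 16 import genes was called, Hspd1 (0.42, adjusted p = 0.0499), beside 4.39% of all genes called higher.

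Enzymes that feed the chain were counted in the same way, beside 18.6% of all genes called higher between the tumor gates and 30.3% and 29.7% between tissues in OX40plus and OX40minus. Of 16 citric acid cycle and pyruvate entry genes, 5 were higher in tumor OX40plus than OX40minus (median 0.18; Idh3a 0.57), whereas 13 and 11 were higher in tumor than in spleen in OX40plus and OX40minus, with none lower. Other electron donors to ubiquinone were higher for 4 of 10 between the tumor gates (Etfb 0.94), ubiquinone synthesis genes for 6 of 13 with 2 lower (Coq7 1.40, Coq10b -0.77), and nucleotide and phosphate carriers for 4 of 6 (Slc25a5 0.63, Vdac1 0.66).

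Genes that transcribe, process and maintain mitochondrial nucleic acids were called in both directions between tissues, where 30.3% of all genes were higher and 34.2% lower in OX40plus and 29.7% and 29.3% in OX40minus. Between the tumor gates the shares over all genes were 18.6% higher and 20% lower. Of 21 genes of mitochondrial transcription and RNA processing, 9 were higher and 0 lower in tumor OX40plus than OX40minus (median 0.28), but between tissues 5 were higher and 3 lower in OX40plus and 1 was higher and 8 were lower in OX40minus. Lrpprc, which binds and stabilizes mitochondrial messages, was at 62.5 ± 14 and 37.3 ± 8.01 CPM in tumor OX40plus and OX40minus and at 53.6 ± 1.61 and 58.3 ± 4.28 CPM in the spleen gates. Tbrg4, a FASTK family gene of mitochondrial RNA, was at 22.7 ± 2.63 and 13.3 ± 1.23 CPM in tumors against 79 ± 7.82 and 76.7 ± 3.39 CPM in spleens (-1.80 and -2.53 between tissues). Polrmt, the mitochondrial RNA polymerase, was also lower in tumors (-0.90, adjusted p = 3.29e-05, and -0.73, adjusted p = 0.000308). Of 10 mitochondrial DNA maintenance genes, 3 were higher and 2 lower between the tumor gates (the helicase gene Twnk 1.36, Top1mt 1.38, Tk2 -0.89). Between tissues 2 of these 10 were higher and 3 lower in OX40plus, and 2 were higher and 4 lower in OX40minus. Polrmt was picked here after its values were seen.

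Of 14 regulators of respiratory genes, 2 were higher and 4 lower between the tumor gates, near the shares of 18.6% and 20% over all genes. Myc was at 209 ± 31.5 and 117 ± 6.86 CPM (0.82, adjusted p = 9.25e-06), Nfe2l2 fell by 0.51, and Perm1 was at 0.212 ± 0.241 and 1.2 ± 0.435 CPM (-2.81). Nrf1, the factor whose motif was searched and picked here after its values were seen, was at 133 and 136 CPM in the tumor gates and at 73.2 and 76.5 CPM in the spleen gates (0.85 and 0.83 between tissues, adjusted p = 4.81e-07 and 9.11e-07). Of the 14 regulators, 4 were higher and 6 lower in tumors in OX40plus (median -0.13), and 2 higher and 6 lower in OX40minus (median -0.22). The shares over all genes were 30.3% higher and 34.2% lower in OX40plus, and 29.7% and 29.3% in OX40minus. All 14 mitosis genes were higher in tumor OX40plus than OX40minus (median 1.32), and 11 of 14 were higher in spleen OX40plus than OX40minus (median 0.82). Over all genes, 18.6% and 4.39% were called higher in these 2 contrasts. In limma's test of the difference between tissues 0 of 14 mitosis genes passed, beside 4.53% of all genes called positive and 6.38% negative. All 14 mitosis values were positive, and 6 had an unadjusted p under 0.05. Their median was 0.46, beside 0.38 for the nuclear respiratory genes. Mitosis genes were thus called between the spleen gates, in which no nuclear respiratory gene was. Their part in the tumor difference was not tested.

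For the nuclear genes as a class, 57 promoters of 52 genes could be matched to the RefSeq table. The NRF1 motif was in 19.3% of them, against 7.1% of 12933 promoters of genes tested and 3.74% of all 32851 promoters. The ETS motif was in 17.5%, against 12.1% and 6.91%. The motif AAGATGGC of YY1 was in 1.75% against 1.89% and 1.56%, and GGGCGG of SP1 in 40.4% against 54.3% and 32.7%. Between the tumor gates the median log2 fold change was 0.41 over the 10 genes with the NRF1 motif, 8 of them called, and 0.48 over the 42 genes without it, 28 of them called. All of these calls were higher, beside 18.6% of all genes called higher and 20% lower between the tumor gates (median -0.07). Between tissues in OX40plus the medians were 1.17 and 1.14, against an all-gene median of -0.13. These are matches of letters in a window of 250 bases and not measured binding.

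Nuclear respiratory genes have short transcripts, with a median length of 772.5 bases against 2693 bases over all genes tested, and fold changes were related to length over all genes. Across the 66 nuclear genes, Spearman's rho between transcript length and log2 fold change was -0.27 for the tumor gates, -0.29 for the spleen gates, -0.26 and -0.29 for the tissues in OX40plus and OX40minus, and 0.03 for the difference between tissues. Across all 12121 genes with a length it was -0.15, -0.11, -0.25, -0.22 and -0.11. The genes share the same libraries, and the values are descriptions across genes. Among the nuclear genes, the 41 shorter than 1000 bases had a median of 0.53 between the tumor gates and the 25 longer ones 0.41. Over all genes tested the corresponding medians were 0.24 and -0.09. Between tissues the long nuclear genes had medians of 1.05 in OX40plus and 0.60 in OX40minus, and the long genes among all genes tested -0.16 and -0.05. The cut at 1000 bases does not match the lengths of the nuclear genes to those of all genes. The part of length in these differences was not tested.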

How the data were processed

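RNA-seq of sorted Tregs gave 28 libraries, 2 for each mouse and gate. Per the submitters' processing notes, the tools were bcl2fastq 2.19, kallisto and limma, and the genome build was mm10. How transcripts became genes, and which scaling factor, gene filter and strand setting applied, is not stated in the sources used here. The authors' deposited table holds log2 CPM, although its name speaks of counts, in the form of limma's voom transformation, log2 of a count plus 0.5 over the effective library size. The lowest value of each library, shared by 451 to 1322 genes, gave that size and so estimated counts. Of these, 43.2% to 49.0% per library were whole within 0.01. Per the labels, total RNA was prepared with a column kit and a TruSeq library kit.

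The 2 libraries of a mouse and gate were averaged, which left 14 samples. A count model had been planned. Because the values are log2 CPM, limma's linear model with a mean-variance trend was used on them (limma 3.58.1, R 4.3.3), with all 14 samples in 1 fit, 1 term per group, and Benjamini-Hochberg adjustment over 12509 genes, each with 0.382 CPM or more in 3 or more samples and a total of 15 estimated counts or more. The 0.5 added to every count makes log2 fold changes too small for genes with few reads. CPM values were computed from the estimated counts and are given with the SD between mice, and their precision covers counting error only where 3 counts are given. Transcript lengths, positions and near copies (BLAST 2.17.0) came from GENCODE on GRCm38, the build that mm10 denotes, and promoters from RefSeq. Tables and figures were made with Python 3.11.15, pandas 2.3.3 and matplotlib 3.10.9.

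Both gates of a tissue from mice of the same number come, by their titles, from the same animal, so the mouse numbers pair the samples. The correlations of their deviations from the group means were -0.162 to 0.112, and the consensus correlation was -0.05. The fit without the block is the main one. Alternatives were other scalings, no filter, log2(CPM + 1), voom weights, the block, only the 2 groups compared, and leaving out each sample.

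The genes and lists were chosen with earlier results of these data known. Named genes were every mitochondrial gene, complex II, subunits with several genes, the 2 highest and 2 lowest called fold changes per complex and comparison, genes called against the direction of their complex, and up to 3 genes of each list by the smallest adjusted p; other genes that are named were chosen after their values were seen. Values of 1 gene are not reported here.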

Additional observations from a re-analysis of the deposited data

Results flagged for a closer look

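Several values of single mice lay far from the other 3 mice of their group, by a gap that chance gives in about 1 group in 20. Among 80 genes a number of such gaps come by chance alone, and the number flagged was not compared with it. Mouse 4 was the highest of the tumor OX40plus group in 11 of the 13 cases given here. Its ratio of mitochondrial to nuclear sums was 0.552. Its mitochondrial genes ND4 (347 CPM), ND6 (100.4 CPM), CYTB (1048 CPM) and ATP8 (200.2 CPM) stood apart. So did its nuclear genes Ndufs4 (137 CPM), Ndufaf2 (24.8 CPM), Sdhb (538 CPM), Uqcr10 (265 CPM), Uqcrh (281 CPM) and Atp5c1 (519 CPM). In the same group mouse 1 was far the lowest for Ndufv1 (128 CPM). In tumor OX40minus, mouse 3 was far the highest for Uqcrb (148 CPM).

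The difference between the OX40 contrasts of tumor and spleen passed limma's test for 8 genes. On the log2 scale it was 0.42 for Ndufs1, 0.98 for Ndufaf4, 0.63 for Uqcrfs1, 0.67 for Cox5a, 0.47 for Atp5b, 0.91 for Atp5mpl, 0.76 for ND1 and 0.62 for ND2.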

How the results depend on the processing

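The difference between the tissues' OX40 contrasts depended most on the settings. It was called for 10 nuclear genes with relative log expression factors and for 2 with the replicate block, against 6, and for 1 mitochondrial gene with library size alone, against 2. Leaving out single samples gave 1 to 17 nuclear and 0 to 5 mitochondrial genes. Between the spleen gates, 1 mitochondrial gene was called lower when only these groups were fitted, and 0 to 1 when a sample was left out. The tumor gate counts were 37 to 51 nuclear and 1 to 3 mitochondrial genes when a sample was left out, the latter 1 without tumor OX40plus mouse 4 or tumor OX40minus mouse 1. Between tissues, leaving out a sample gave 56 to 61 nuclear genes higher and 0 to 1 lower in OX40plus and 49 to 53 higher and 0 to 1 lower in OX40minus, with 2 to 4 mitochondrial genes higher and 7 to 8 lower in OX40plus and 1 higher and 9 lower in OX40minus. The causes were not tested.

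Of the values of the genes named by rule, over all alternatives, 5743 kept their side of the threshold, 42 passed it, 143 lost it and 0 reversed. The pairing by mouse, as a block, took 8 calls of these named genes and gave 2, took those of Ndufs5 and Atp5l besides, and moved no other count by more than 1.5 times. Library size alone shifted the median of all genes by -0.10 (log2) between tissues in OX40plus. The spleen gates have 3 mice each, and kallisto's sharing of reads leaves genes with near copies uncertain.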
